A study of Mus musculus with 2 samples.

Results

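The ribosomal protein genes were the 83 of 32285 mouse genes in the files whose symbol is Rpl or Rps with a number, with an optional letter and copy number, or is Rplp0, Rplp1, Rplp2 or Rpsa. Of these, 32 encode proteins of the small ribosomal subunit and 51 proteins of the large subunit, and 6 of them (Rpl3l, Rpl7l1, Rpl10l, Rpl22l1, Rpl39l and Rps27l) are paralogs of another member. The members were chosen by symbol and not by any measured value. Single-cell RNA-seq was made from omental tumors of female C57BL/6J mice aged 12 to 16 weeks, 10 days after intraperitoneal grafting of KPCA cells, a mouse ovarian cancer line of fallopian tube epithelial origin that carries mutant P53 and overexpresses CCNE1 and AKT2. Both grafted lines lack Fst, the gene of the activin antagonist follistatin: KPCA.FSTKO has no further change, while KPCA.FSTKO_hFSTL3 is 1 stable clone with a human FSTL3 plasmid, selected for secretion of the protein. Each line gave 1 library from 4 pooled tumors, so that every difference below lacks a replicate check, no test was run, and the clone, the FSTL3 plasmid and the library cannot be told apart.

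A ribosome joins a small subunit, which reads the messenger RNA, to a large subunit, which forms the peptide bonds. Each subunit is a folded ribosomal RNA that carries a fixed set of proteins, nearly all present in 1 copy, and their messenger RNAs are among the most abundant in growing cells. Many of these messengers begin with a C and a run of pyrimidines, the terminal oligopyrimidine motif, through which mTOR signaling sets their translation. The share of a cell's RNA taken by these genes is often used in single-cell work as a sign of growth, of differentiation or of RNA quality.

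The 2 libraries held 7582 and 4244 barcodes and 168214773 and 80391504 unique molecular identifiers (UMIs, each counting 1 captured RNA molecule). Barcodes were kept below 20% mitochondrial UMIs if they held over 200 but under 8000 detected genes, 6777 in KPCA.FSTKO and 4041 in KPCA.FSTKO_hFSTL3, with medians of 17253 and 15071 UMIs and of 3.54% and 10.7% mitochondrial UMIs. The libraries shared 12 barcode sequences, 10 of them among the kept barcodes. Fst was found at 1696 and 1590 UMIs over all barcodes (10.1 and 19.8 per 1000000 UMIs). Its 3′ reads need not lie in the deleted part, and the authors report Fst mainly in mesothelial cells and fibroblasts of these tumors. The source of these UMIs was not tested. Cells were sorted into classes by marker genes: a class was given where at least 30% of its markers reached 100 CPM in the cell (counts scaled to a total of 1000000 UMIs), with at least 1.5 times the share of the next class. In KPCA.FSTKO_hFSTL3, 3008 of the 4041 kept barcodes raised pancreatic acinar markers together with those of at least 2 other classes. Cancer-gated and macrophage-gated cells of KPCA.FSTKO raised a median of 6 of 12 and 10 of 12 of their own markers. The barcodes of several classes are called mixed, they had a median of 11.8% mitochondrial UMIs, and they are shown apart from the gated classes. Of the gated cells of that library, 35 of 171 cancer-gated, 108 of 129 macrophage-gated and 38 of 60 fibroblast/pericyte-gated cells raised at least 2 acinar markers, although acinar genes made up 0.100% or less of the UMIs of each of these 3 classes.

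In both libraries the ribosomal protein genes took nearly the same part of all UMIs, 23.7% in KPCA.FSTKO (33684216 UMIs) and 24.0% in KPCA.FSTKO_hFSTL3 (16716246 UMIs). The spread over single barcodes differed. In KPCA.FSTKO the middle 50% of kept barcodes ran from 14.2% to 26.2%, with a lowest barcode at 0.479% and a highest at 77.8%. In KPCA.FSTKO_hFSTL3 the middle 50% ran from 23.4% to 25.4%. The narrow range came with the mixed barcodes, whose SD over barcodes was 1.77 percentage points, against 8.04 in the cancer-gated cells of the same library and 9.52 in those of KPCA.FSTKO. Counting error at the median depth gives an SD of 0.334 points in mixed barcodes and 0.242 points in the cancer-gated cells of KPCA.FSTKO, so that both classes varied more than counting alone, by 5.30 times and 39.3 times.

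Cancer-gated cells carried the highest ribosomal protein share of the large classes, and neutrophil- and erythroid-gated cells the lowest. With a looser gate (25% of the markers and no lead) the lowest were erythroid-gated cells at 11.5% and endothelial-gated cells at 13.7%, with neutrophil-gated cells at 14.4%. In KPCA.FSTKO, ribosomal protein genes made up 25.5% of the summed UMIs of 3349 cancer-gated cells (median over cells 24.3%, quartiles 19.2% and 29.6%). T/NK-gated cells, lymphocytes marked by Cd3 chains, Trac, Nkg7 and others, were close to them at 23.1% (exact 95% interval 23.0% to 23.2%, counting error only, 79 cells). Lower shares were measured in 496 fibroblast/pericyte-gated cells (19.0%), 943 macrophage-gated cells (16.4%) and 110 endothelial-gated cells (12.7%). The 127 neutrophil-gated cells had 7.46% (7.37% to 7.54%) and a median over cells of 6.17%. The 86 erythroid-gated cells had 7.94% of the summed UMIs but a median of 2.66%. Those 2 values differ because 4 erythroid-gated cells above 10000 UMIs held 71.2% of the class's ribosomal protein UMIs, and without them the share was 3.03%.

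Relative to cancer-gated cells of the same library, the share was 1.55-fold lower in macrophage-gated cells of KPCA.FSTKO (log2 ratio -0.63) and 1.40-fold lower in those of KPCA.FSTKO_hFSTL3 (-0.49). In fibroblast/pericyte-gated cells it was 1.34-fold and 1.29-fold lower (-0.42 and -0.37), and in endothelial-gated cells of KPCA.FSTKO 2.01-fold lower (-1.01). Neutrophil-gated cells had a 3.42-fold lower share (-1.77). The erythroid value of -1.68 became -3.07 without the 4 deep cells, and the neutrophil value became -1.91 without 2 cells above 10000 UMIs that held 15.9% of its ribosomal protein UMIs. The order from cancer to fibroblast/pericyte to macrophage was the same in both libraries, with cancer-gated cells at 22.6%, fibroblast/pericyte-gated cells at 17.5% and macrophage-gated cells at 16.1% in KPCA.FSTKO_hFSTL3. The quartile ranges over cells of the last 2 classes overlapped in both libraries. Barcodes gated as acinar had 22.2% (433 in KPCA.FSTKO_hFSTL3), and 19 dendritic-gated cells of KPCA.FSTKO had 23.3%. Mixed barcodes had 24.9%, above each gated class of their library that held at least 10 cells.

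**Figure D1:**
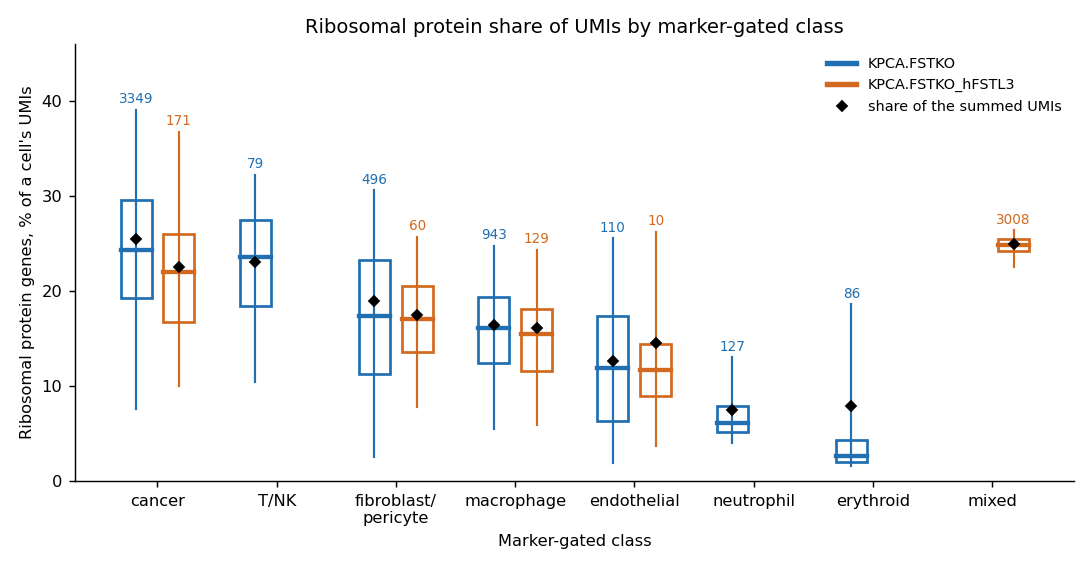
Ribosomal protein share of UMIs (vertical axis, % of a cell's UMIs) by marker-gated class for KPCA.FSTKO (blue) and KPCA.FSTKO_hFSTL3 (orange). Boxes give the quartiles over cells, thick lines the median, thin lines the 5th to 95th percentile, diamonds the share of the summed UMIs and numbers the cells; classes of under 10 cells and the dendritic-gated, acinar-gated and B-cell marker barcodes are not drawn. The median runs from 24.3% in cancer-gated to 2.66% in erythroid-gated cells of KPCA.FSTKO, and the mixed barcodes sit in a narrow band around 24.9%.

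Depth moved with the share in a different way in each class. In cancer-gated cells of KPCA.FSTKO the median share stood higher in each deeper range, from 17.3% below 1000 UMIs to 25.9% at 40000 UMIs or more, and Spearman's rho between share and UMIs over the 3349 cells was 0.21. In fibroblast/pericyte-gated cells the median was lowest, among the 7 ranges, between 2000 and 5000 UMIs, at 5.92%, and 19.5% between 20000 and 40000 UMIs. In endothelial-gated cells it went from 15.6% below 1000 UMIs to 7.06% between 2000 and 5000 UMIs and to 15.1% between 20000 and 40000 UMIs. Between 2000 and 5000 UMIs the cancer-gated median was 19.2%, so these classes stood far apart there, while below 1000 UMIs the medians of cancer-, macrophage-, fibroblast/pericyte-, endothelial- and erythroid-gated cells lay between 14.9% and 17.3%. Neutrophil- and erythroid-gated cells went the other way from cancer-gated cells. The neutrophil median went from 8.10% between 1000 and 2000 UMIs to 5.71% between 2000 and 5000 UMIs, and the erythroid median from 14.9% in 7 cells below 1000 UMIs to 1.87% in 23 cells between 5000 and 10000 UMIs. Free RNA in the droplets adds UMIs to shallow barcodes most, and its part in these values was not tested.

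At matched depth the order of the classes depended on the range. From 10000 UMIs on, the medians of KPCA.FSTKO kept the order cancer, fibroblast/pericyte, macrophage. In each range below 10000 UMIs the fibroblast/pericyte median lay under the macrophage median, with 5.92% against 11.5% between 2000 and 5000 UMIs. Between 20000 and 40000 UMIs in KPCA.FSTKO, the median was 24.3% in 1463 cancer-gated, 19.5% in 156 fibroblast/pericyte-gated and 16.1% in 135 macrophage-gated cells. In KPCA.FSTKO_hFSTL3 the same range held 18.8% in 46 cancer-gated cells (quartiles 13.5% and 24.1%), 16.2% in 30 fibroblast/pericyte-gated cells and 15.9% in 63 macrophage-gated cells. The last 2 medians lay well inside the spread over cells of each class (quartiles 12.6% and 19.9%, and 13.1% and 18.2%). The 1171 mixed barcodes of this depth had a median of 25.3%.

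**Figure D2:**
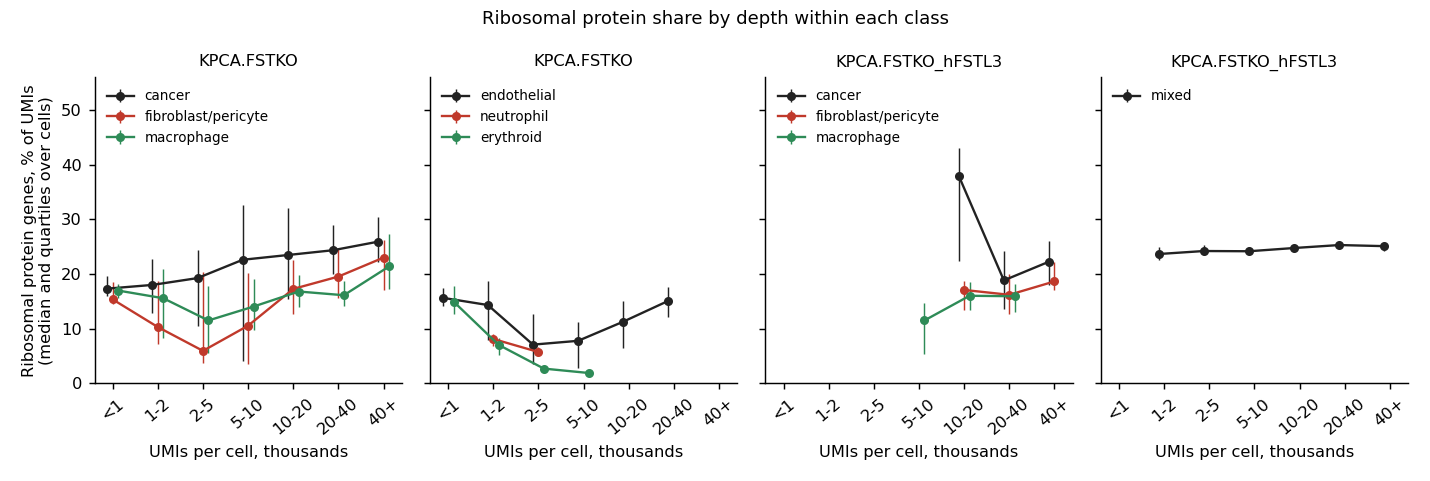
Median ribosomal protein share with quartiles over cells (vertical axis, % of UMIs) against depth (horizontal axis, UMIs per cell divided by 1000, 7 ranges) for the classes named in each panel; ranges with under 5 cells are not drawn. Cancer-gated cells of KPCA.FSTKO run from 17.3% to 25.9%, erythroid-gated cells from 14.9% to 1.87%, and mixed barcodes stay between 23.6% and 25.3%.

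Over cells of a class, the ribosomal protein share was compared with the shares of Malat1, a long noncoding RNA kept in the nucleus, and of mitochondrial genes. Over cancer-gated cells of KPCA.FSTKO, Spearman's rho with the Malat1 share was -0.47 and with the mitochondrial share -0.31, and over 110 endothelial-gated cells they were -0.73 and -0.54. T/NK-gated cells had the same signs, at -0.47 with Malat1 and a weak -0.037 with the mitochondrial share. Not every class had both signs: neutrophil-gated cells had -0.073 and 0.17, and erythroid-gated cells 0.65 and 0.49. The 10 endothelial-gated cells of KPCA.FSTKO_hFSTL3 had -0.44 and 0.32. Shares of 1 cell sum to a whole and share its library and depth, which by itself pulls them apart, and these values are descriptions. The translation factor list held 15 genes, most of whose messengers also carry terminal pyrimidine tracts, with Eef1a1, Eef2, Tpt1 and Pabpc1 among them. It also holds Npm1 and Hnrnpa1, which are not translation factors. The share of this list followed the ribosomal protein share with rho 0.88 in the cancer-gated cells of KPCA.FSTKO and 0.89 in those of KPCA.FSTKO_hFSTL3. The share of 21 ribosome biogenesis genes, which make and process ribosomal RNA (Ncl, Fbl, Polr1a and others), had rho of -0.0043 and -0.083 in the same cells. Over the 3008 mixed barcodes rho with the translation factors was 0.28.

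Other measures differed at both ends of the distribution. In KPCA.FSTKO, 582 kept barcodes had under 5% ribosomal protein UMIs, with medians of 10.4% mitochondrial and 3.32% Malat1 UMIs. At the other end 108 barcodes had over 50%, with medians of 11222 UMIs, 1203 genes and 0.026% Malat1, and 4.01% translation factor UMIs against 1.86% in barcodes of 15% to 25%. Of these 108 barcodes, 56 were cancer-gated and 51 passed no gate. KPCA.FSTKO_hFSTL3 had 37 barcodes under 5% and 5 over 50%. Barcodes with few genes, little Malat1 and many ribosomal protein messengers thus made up 1.59% of the KPCA.FSTKO barcodes. Some members departed from the rest in these tails, which were picked by the summed share of the same members. A member that follows the sum less is thereby higher within the set under 5% and lower over 50%. The values are descriptions. Against cancer-gated cells of 15% to 35%, the within-set share of Rpl7l1, a paralog of Rpl7, was higher in cells under 5% (log2 1.98, exact interval 1.51 to 2.41, from 43 UMIs) and lower in cells over 50% (-3.24, -4.02 to -2.56, from 17 UMIs). Rps15 and Rpl38 were also at least 1.5 times higher under 5% (0.78 and 0.72), and Rps27l and Rpl4 at least 1.5 times lower over 50% (-1.11 and -0.68). Not all of them moved in both tails. Rps15 and Rpl38 were at -0.15 and 0.0082 over 50%, and Rps27l and Rpl4 at 0.31 and 0.14 under 5%. Of these, the intervals of Rpl38, Rps27l and Rpl4 held both signs.

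Cancer-gated cells in cycle had a slightly lower ribosomal protein share than the others at the same depth in KPCA.FSTKO. Of those between 20000 and 40000 UMIs, 259 cells that raised at least 3 of 8 proliferation genes such as Mki67 and Top2a had a median of 22.5% (quartiles 18.4% and 26.7%), and the 1204 others had 24.7% (20.3% and 29.5%). Their ribosome biogenesis genes were higher, 0.228% against 0.154% of UMIs. In KPCA.FSTKO_hFSTL3 the medians were 20.3% in 16 cells and 18.4% in 30 cells, in the other order and inside a wide spread.

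No single member dominated the set. UMIs were counted at the 3′ end, 1 per molecule, so levels of genes are compared without a length correction. Rps2, a protein near the messenger RNA entry site of the small subunit, had the most UMIs with 2.56% of the set over both libraries, followed by Rplp0 with 2.52%, Rpl13 with 2.48% and Rplp1 with 2.32%. The median member had 1.18%, and the first 10 members together had 22.3%. Of the 83 members, 80 reached 100 UMIs over both libraries and enter the counts below. The fewest UMIs among these belonged to Rpl4 (0.377%), Rpl22l1 (0.329%), Rps27l (0.148%) and Rpl7l1 (0.033%). Rpl3l and Rpl39l had 81 and 56 UMIs in all, and Rpl10l had 0 UMIs. The small subunit took 42.7% to 46.6% of the ribosomal protein UMIs in each class and library, with 44.0% in cancer-gated and 45.0% in macrophage-gated cells of KPCA.FSTKO, so that the balance of the subunits moved much less than the sum.

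The stalk of the large subunit, where translation factors bind, is built on Rplp0, which carries dimers of Rplp1 and Rplp2. In cancer-gated cells Rplp0 stood at 6890 CPM in KPCA.FSTKO and 6108 CPM in KPCA.FSTKO_hFSTL3, Rplp1 at 5209 and 5672 CPM, and Rplp2 at 2677 and 2384 CPM. In macrophage-gated cells Rplp0 was lower than Rplp1 in both libraries, with 2711 and 2518 CPM against 3662 and 4037 CPM. The 3 stalk genes therefore did not keep 1 ratio between these classes. Rpsa, the small-subunit protein also known as the laminin receptor, had 4439 and 4244 CPM in cancer-gated and 2642 and 2523 CPM in macrophage-gated cells, and 5427 CPM in the T/NK-gated cells of KPCA.FSTKO.

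The start sites of the members that the next results turn on show how unlike their first bases are. RefSeq sequences on GRCm38.p6, from 250 bases before to 50 bases after the annotated start, were matched for 63 of the 83 members. A C at the annotated start followed by at least 4 pyrimidines was present in 13 of 63 members (20.6%) and in 813 of 27025 genes (3.01%). CCGGAAG, the core bound by ETS factors, was found on either strand in 26 members (41.3%) and in 9.93% of all genes, and AAGATGG, the core of the YY1 motif, in 10 members (15.9%) and 7.28%. The pyrimidine run was read at 1 annotated base only, so a start placed a few bases away is not counted. The 30 bases around the start are given 5′ to 3′ on the strand of the gene, with the 15 transcribed bases in capitals.
Rplp0: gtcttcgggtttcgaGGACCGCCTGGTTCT
Rps2: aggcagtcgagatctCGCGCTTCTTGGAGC
Rps9: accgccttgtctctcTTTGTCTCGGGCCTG
Rpl37a: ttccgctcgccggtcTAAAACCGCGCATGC
Rps27: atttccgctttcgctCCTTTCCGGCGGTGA
Rpl35a: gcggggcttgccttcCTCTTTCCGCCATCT
Rpl35: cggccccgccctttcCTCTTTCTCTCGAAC
Rps18: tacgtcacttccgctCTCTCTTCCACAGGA

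They lie at chr5:115559452-115559481 (Rplp0, plus strand), chr17:24720048-24720077 (Rps2, plus), chr7:3704026-3704055 (Rps9, plus), chr1:72711245-72711274 (Rpl37a, plus), chr3:90213634-90213663 (Rps27, minus), chr16:33056467-33056496 (Rpl35a, plus), chr2:39005117-39005146 (Rpl35, minus) and chr17:33955651-33955680 (Rps18, minus). From the start base on, Rpl35 has an unbroken run of 11 pyrimidines, Rps18 of 9, Rpl35a of 8 and Rps27 of 7. The annotated starts of Rplp0, Rps9 and Rpl37a are not a C, and that of Rps2 is a C followed by a G. Members with and without the run stood on both sides of the departures described next.

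The macrophage-gated cells used the ribosomal protein genes in other proportions than the cancer-gated cells. To see this apart from the lower sum, each member's share of the ribosomal protein UMIs of a class was divided by its share in the cancer-gated cells of the same library, and this log2 ratio is called its departure. In KPCA.FSTKO, 9 of 80 members departed by at least 1.5 times, 6 higher and 3 lower. Among all genes with at least 100 UMIs, 62.3% lay at least 1.5 times from their median in the same contrast. This share and those of the departures below are not matched for UMIs per gene. Genes near 100 UMIs vary more by counting error, so the spread of members and of genes at large cannot be compared by it. The higher members were Rps29 (0.93, exact interval 0.91 to 0.94), Rpl37a (0.82), Rps9 (0.82), Rps25 (0.71), Rpl35a (0.62) and Rps27l (0.61, 0.56 to 0.66). Rps29 and Rpl37a are small zinc-binding proteins of the small and the large subunit. The lower members were Rpl21 (-0.95), Rps2 (-0.88) and Rplp0 (-0.71), followed by Rpl12, which sits at the base of the stalk (-0.55), and Rps18 (-0.38).

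The macrophage-gated cells of KPCA.FSTKO_hFSTL3, measured against the cancer-gated cells of their own library, gave a similar list. There 11 of 80 members passed 1.5 times, against 60.7% of all genes. The 5 higher were Rps29 (1.09, 1.04 to 1.13), Rpl37a (0.87), Rpl35a (0.81), Rps24 (0.71) and Rpl11 (0.67), and the 6 lower were Rps2 (-0.86), Rplp0 (-0.79), Rpl21 (-0.70), Rpl8 (-0.69), Rpl30 (-0.63) and Rpl34 (-0.62). Departures also hold any difference of the cancer-gated reference between libraries. The log2 CPM ratio of KPCA.FSTKO_hFSTL3 over KPCA.FSTKO in cancer-gated cells was 0.40 for Rpl30, 0.45 for Rpl34 and -0.48 for Rpl11. In macrophage-gated cells it was -0.02, 0.03 and -0.08. For Rpl8 and Rps24 it was 0.17 and -0.23 in cancer-gated and -0.17 and 0.10 in macrophage-gated cells. Rps29, Rpl37a and Rpl35a were higher in both libraries (3 of 6 and 3 of 5), and Rps2, Rplp0 and Rpl21 lower in both (3 of 3 and 3 of 6). Over the 80 members, which are not independent replicates, the departures of the 2 libraries had Pearson's r of 0.80 and Spearman's rho of 0.74, and 68 had the same sign. The 2 contrasts share no cells. Without the barcodes that raised at least 2 acinar markers, 14 members passed in KPCA.FSTKO_hFSTL3.

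**Figure D3:**
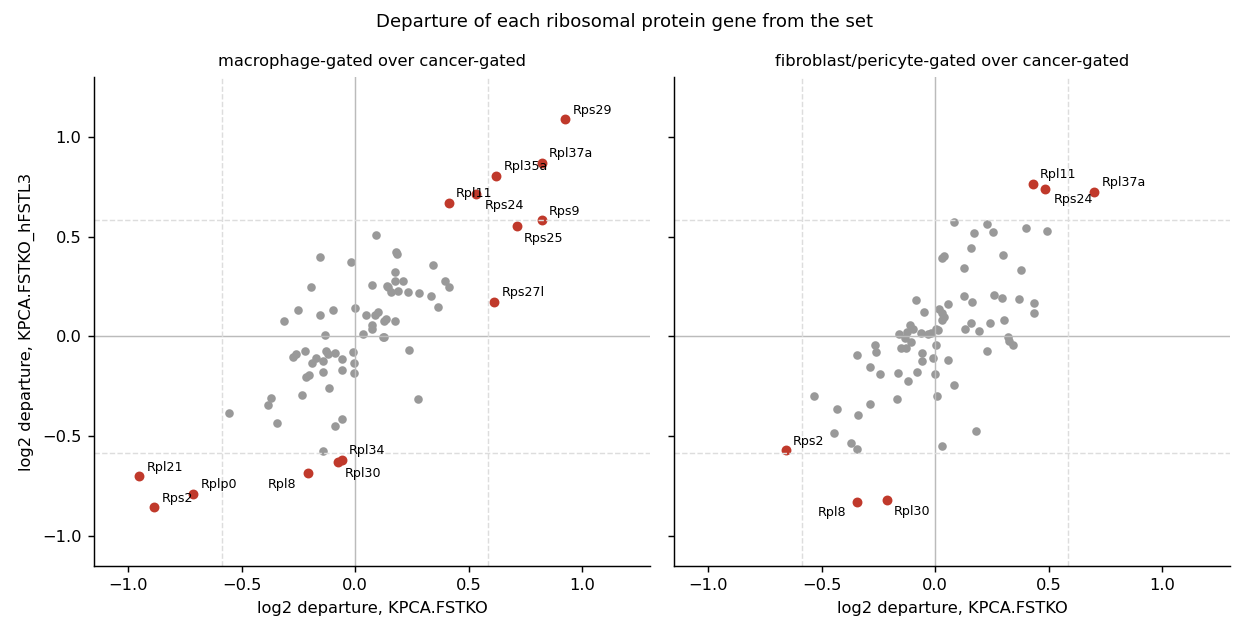
Departure of each of 80 ribosomal protein genes (log2 of its within-set share in the class over that in cancer-gated cells) in KPCA.FSTKO (horizontal) and KPCA.FSTKO_hFSTL3 (vertical), for macrophage-gated cells (left) and fibroblast/pericyte-gated cells (right). Dashed lines mark 1.5 times and red points are members past it in at least 1 library. Rps29 lies at 0.93 and 1.09, and Rps2 at -0.88 and -0.86, in macrophage-gated cells.

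In levels, the opposite members moved in opposite directions. Rps29 stood at 2574 CPM in cancer-gated and 3154 CPM in macrophage-gated cells of KPCA.FSTKO. The pair of values for KPCA.FSTKO_hFSTL3 was 1631 and 2468 CPM. Rps2 was at 7181 CPM in cancer-gated and 2509 CPM in macrophage-gated cells of KPCA.FSTKO, with 6382 and 2510 CPM for KPCA.FSTKO_hFSTL3. Rps29 was thus higher in macrophage-gated cells of both libraries while the summed share was lower. Rpl21 went from 4406 to 1470 CPM and from 3448 to 1511 CPM. Rpl37a went from 2131 to 2433 CPM and from 1597 to 2079 CPM. Rps9, a protein of the body of the small subunit, went from 2854 to 3255 CPM and from 2842 to 3028 CPM.

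Fibroblast/pericyte-gated cells departed less. In KPCA.FSTKO 2 of 80 members passed 1.5 times (47.0% of all genes did), Rpl37a higher (0.70) and Rps2 lower (-0.66), with Rpl21 at -0.54. In KPCA.FSTKO_hFSTL3 5 members passed (48.9% of all genes), of which Rpl11 (0.76), Rps24 (0.74) and Rpl37a (0.73) were higher and Rpl8 (-0.83) and Rpl30 (-0.82) lower. Between libraries, Rpl11, Rps24 and Rpl30 differed more in the cancer-gated reference (log2 CPM ratios -0.48, -0.23 and 0.40) than in fibroblast/pericyte-gated cells (-0.09, 0.09 and -0.16). Rpl8 differed less in the reference (0.17 against -0.26). Rpl37a passed in both libraries. Rpl11, which binds Mdm2 together with Rpl5 when ribosome assembly fails, stood at 0.43 in KPCA.FSTKO. Over the 80 members the departures had r of 0.72 and rho of 0.73 between the libraries, and 61 had the same sign.

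The other classes of KPCA.FSTKO were compared with the same cancer-gated cells, so their values share that reference and are given side by side. The members named for macrophage-gated cells were not particular to them. Leaving out erythroid-gated cells, Rps2, Rplp0, Rpl21, Rpl12 and Rps18 were lower in all 5 classes, macrophage-gated cells included. Rps29, Rpl37a, Rps9, Rps25 and Rpl35a were higher in all 5, and Rps27l in 4. In T/NK-gated cells 7 members passed 1.5 times (66.5% of all genes), with Rps24 (0.79), Rpl37a (0.69), Rpl27 (0.65) and Rps27 (0.59) higher and Rps2 (-0.95), Rpl10 (-0.84) and Rpl7l1 (-0.72, -1.36 to -0.15, from 24 UMIs) lower. In endothelial-gated cells 7 passed (63.5%), with Rpl15 (0.86), Rps24 (0.76) and Rpl37a (0.67) higher and Rpl21 (-0.93), Rps2 (-0.82), Rplp0 (-0.74) and Rpl12 (-0.70) lower. In neutrophil-gated cells 11 passed (75.4%), led by Rps27 (1.21, 1.06 to 1.36), Rps9 (1.18, 1.07 to 1.29), Rpl7l1 (1.02, 0.26 to 1.68, from 18 UMIs) and Rps29 (0.91). Rps25, Rpl37a and Rps27l were also higher there (0.76, 0.68 and 0.64), and Rps2 (-0.96), Rps4x (-0.72), Rplp0 (-0.66) and Rps18 (-0.61) were lower. Rps27 shows the range over classes, at 1.21 in neutrophil-, 0.59 in T/NK-, 0.29 in fibroblast/pericyte- and -0.0029 in macrophage-gated cells. In erythroid-gated cells 0 of 80 members passed (63.2% of all genes), but without the 4 deep cells Rpl41 (0.70, 0.50 to 0.90) and Rps27l (0.63, -0.15 to 1.31, from 17 UMIs) were higher and Rpl29 (-0.79, -1.35 to -0.27, from 30 UMIs) lower by at least 1.5 times. Rps2 there went from 0.09 to -0.42 (-0.62 to -0.22). Without the 2 deep neutrophil-gated cells 15 members passed in that class. Mixed barcodes of KPCA.FSTKO_hFSTL3 had 2 members past 1.5 times (37.0%), Rpl37a higher (0.60) and Rpl23a lower (-0.61).

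**Figure D4:**
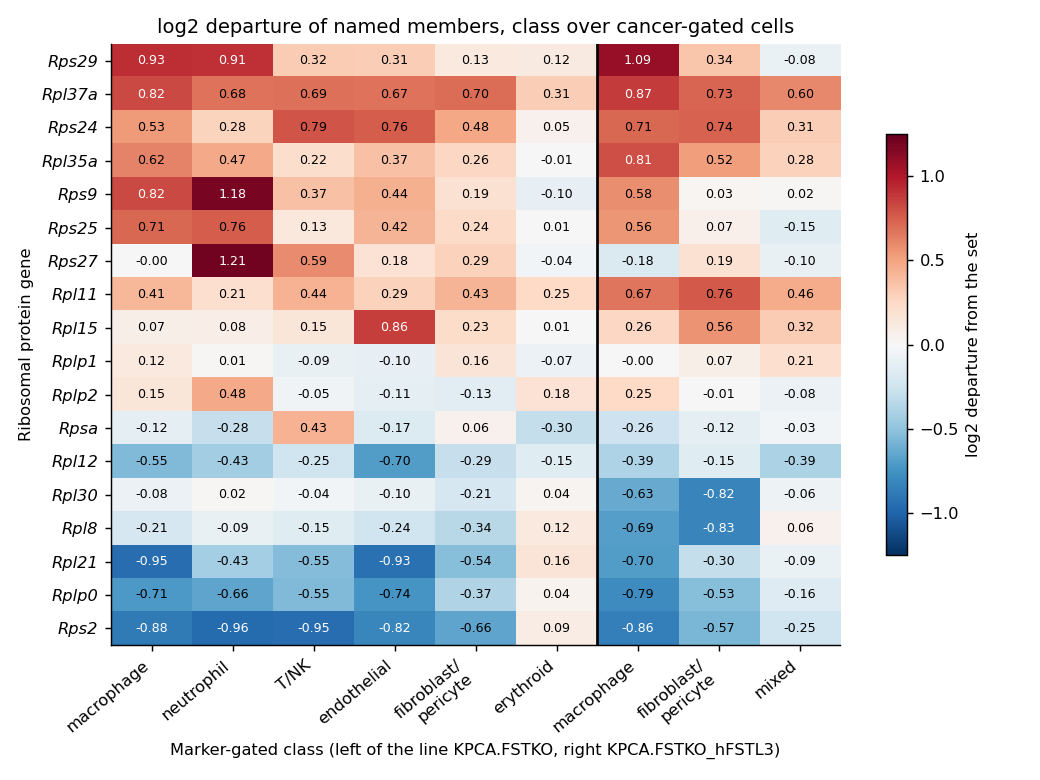
Departure (log2) of 18 named ribosomal protein genes in each class over the cancer-gated cells of the same library, 6 classes of KPCA.FSTKO left of the line and 3 of KPCA.FSTKO_hFSTL3 right of it; red is a higher and blue a lower within-set share. Rpl37a runs from 0.31 to 0.87 over the 9 columns, and Rps2 from -0.96 to 0.09, its highest value being in erythroid-gated cells, where it is -0.42 without the 4 deep cells.

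Counted by CPM, with the lower sum included, the members followed the summed share. In macrophage-gated cells of KPCA.FSTKO 43 of 80 members were at least 1.5 times lower than in cancer-gated cells and 0 higher, where 42.9% of all 13354 genes were lower and 22.5% higher. The median over members was -0.63 and over all genes -0.37. In KPCA.FSTKO_hFSTL3 27 members were lower (37.9% of all genes) and 1 higher (24.6%), which was Rps29 (0.60), and the medians were -0.42 and -0.25. In fibroblast/pericyte-gated cells 17 members were lower and 0 higher in KPCA.FSTKO (25.5% and 22.7% of all genes) and 16 lower and 0 higher in KPCA.FSTKO_hFSTL3 (29.4% and 20.7%). T/NK-gated cells, whose median member and median gene were both at -0.12, had 8 lower and 1 higher, Rps24 (36.8% and 29.4%). Endothelial-gated cells had 70 lower and 0 higher (33.5% and 29.9%), neutrophil-gated cells 79 lower and 0 higher (55.9% and 22.7%) and erythroid-gated cells 80 lower and 0 higher (90.1% and 2.83%). In erythroid-gated cells the median member, at -1.69, lay above the median gene at -1.93. Scaling by TMM in place of the total shifted the log2 ratios by -0.13 in fibroblast/pericyte-gated, -0.35 in T/NK-gated, -0.36 in endothelial-gated and 1.55 in erythroid-gated cells of KPCA.FSTKO. The numbers of lower members then became 33, 30, 79 and 1, while the sign of each median over members stayed the same. Such a shift moves all genes as well. The share of all genes with TMM is not given here or below, so numbers with TMM are not set against it. Mixed barcodes had 3 members at least 1.5 times higher than cancer-gated cells, Rpl37a, Rpl11 and Rpl41, and 0 lower (14.7% and 31.8%), and TMM, with a shift of 0.34, gave 21 higher and 0 lower.

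Genes that act with the ribosomal proteins were counted in the same contrasts, beside the share of all genes that were lower. Of the 15 genes of the translation factor list, 8 were at least 1.5 times lower and 0 higher in macrophage-gated cells of KPCA.FSTKO (Eef1b2, Eef1d and Eef1g among them, median -0.61), where 42.9% of all genes were lower, and 9 lower in those of KPCA.FSTKO_hFSTL3 (37.9% of all genes). Of the ribosome biogenesis genes, 12 of 21 were lower in KPCA.FSTKO (Ncl, Nop56 and Dkc1 among them, median -0.86) and 15 of 20 in KPCA.FSTKO_hFSTL3. In fibroblast/pericyte-gated cells 5 of 15 and 13 of 21 were lower in KPCA.FSTKO (8 and 14 with TMM, and 25.5% of all genes without it). In endothelial-gated cells 8 and 15 were lower (14 and 19 with TMM, and 33.5% of all genes without it), and in neutrophil-gated cells 15 and 19, beside 55.9%. All 15 and 19 of 21 were also lower in erythroid-gated cells, beside 90.1% of all genes, but 0 and 2 with TMM. T/NK-gated cells had 2 of 15 translation factor and 6 of 21 biogenesis genes lower, both shares below the 36.8% of all genes without TMM. The 2 numbers became 7 and 18 with TMM. In mixed barcodes, whose ribosomal protein share was above that of cancer-gated cells, 12 of 21 biogenesis genes were lower and 0 higher (9 and 0 with TMM, and 31.8% of all genes lower without it), with Myc and Ncl among them.

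Paralogs made up parts of their pairs that differed by class. Rpl22l1, the paralog of the RNA-binding protein Rpl22, gave 33.6% of the UMIs of the pair in cancer-gated cells of KPCA.FSTKO (33.4% to 33.8%) and 44.0% in those of KPCA.FSTKO_hFSTL3 (43.2% to 44.7%). In fibroblast/pericyte-gated cells it gave 39.7% and 43.2%, and in macrophage-gated cells 28.9% and 29.6%. The macrophage values of the libraries lay close together and their intervals overlapped. The cancer values did not overlap, and neither did the fibroblast/pericyte values (39.0% to 40.5% and 41.4% to 44.9%). Rps27l, a p53 target and paralog of Rps27, gave 14.9% of its pair in cancer-gated cells of KPCA.FSTKO and 25.6% in those of KPCA.FSTKO_hFSTL3, 21.2% and 30.5% in macrophage-gated and 15.2% and 22.8% in fibroblast/pericyte-gated cells. It was lowest in the T/NK-gated cells of KPCA.FSTKO, at 7.64% (6.20% to 9.30%). Rpl7l1 gave 2.20% to 6.19% of its pair with Rpl7 over the classes of KPCA.FSTKO.

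The 3 rare paralogs are known for other tissues, Rpl3l for striated muscle and Rpl10l and Rpl39l for testis. Rpl3l, which had 24 UMIs in 22 of 943 macrophage-gated cells of KPCA.FSTKO (1.89 CPM, exact Poisson interval 1.21 to 2.82), had 8 UMIs in the 3349 cancer-gated cells (0.079 CPM, 0.034 to 0.155). In KPCA.FSTKO_hFSTL3 it had 7 UMIs in 129 macrophage-gated cells (2.73 CPM, 1.10 to 5.61) and 0 in cancer-gated cells, which allows up to 0.358 CPM by a limit of 3 counts. The intervals of macrophage-gated and cancer-gated cells did not overlap in KPCA.FSTKO, and the macrophage interval of KPCA.FSTKO_hFSTL3 lay above the limit for its cancer-gated cells. Neutrophil-gated cells held 4 UMIs (11.5 CPM, 3.14 to 29.5). For Rpl39l the 13 UMIs of macrophage-gated cells in KPCA.FSTKO came from 4 cells and the 9 UMIs in KPCA.FSTKO_hFSTL3 from 1 cell, so the value rests on single cells. Rpl10l was at 0 UMIs in every class, which allows up to 0.030 CPM in cancer-gated cells of KPCA.FSTKO.

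Between the libraries the ribosomal protein share of cancer-gated cells was 1.13-fold lower in KPCA.FSTKO_hFSTL3 (22.6% against 25.5%, log2 ratio -0.17), that of fibroblast/pericyte-gated cells 1.09-fold lower (-0.12, but -0.03 as a mean over cells, -0.04 after thinning to 1000 UMIs or without acinar-marker barcodes and -0.20 without the 5% of deepest cells) and that of macrophage-gated cells 1.02-fold lower (-0.03). These differences are far smaller than the spread over cells within each class. By gene, 6 of 80 members were at least 1.5 times lower in cancer-gated cells of KPCA.FSTKO_hFSTL3 and 1 higher, against 13.4% and 11.5% of 12806 genes. The lower were Rpl35 (-1.06, -1.09 to -1.02), Rps28 (-0.72), Rpl36 (-0.72), Rps21 (-0.70), Rps29 (-0.66) and Rpl13 (-0.63). The higher was Rps27l (0.62, 0.57 to 0.67), which falls under 1.5 times with TMM scaling. With that scaling all ratios of this contrast are lower by 0.11 and 9 members pass 1.5 times lower. The share of all genes is not given with it. Rpl34 (0.45), Rpl30 (0.40), Rpl22l1 (0.40) and Rpl37 (0.30) followed Rps27l.

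Rpl35, a large-subunit protein near the exit of the peptide tunnel, was lower in all 3 classes that could be compared. Its gene lies at chr2:39001580-39005624 on the minus strand. It stood at 1441 and 693 CPM in cancer-gated, 930 and 544 CPM in macrophage-gated and 994 and 558 CPM in fibroblast/pericyte-gated cells of KPCA.FSTKO and KPCA.FSTKO_hFSTL3. Its log2 ratio was -0.77 (-0.86 to -0.69) in macrophage-gated and -0.83 (-0.93 to -0.73) in fibroblast/pericyte-gated cells. In macrophage-gated cells Rpl35 was the 1 member of 80 past 1.5 times lower, and 0 were higher, where 6.04% of 9082 genes were lower and 7.80% higher. The next members were Rps27 (-0.38), Rps29 (-0.35), Rps28 (-0.35) and Rpl10 (-0.26) at the low end and Rps27l (0.32), Rpl31 (0.28), Rpl23a (0.25) and Rpl4 (0.25) at the high end. In fibroblast/pericyte-gated cells Rpl35 and Rps28 (-0.74) were lower and 0 members higher, where 9.12% and 7.19% of 8940 genes were. Neither transcript length nor GC content ranked the members by their ratio in cancer-gated cells (rho 0.0098 and -0.058, 80 members).

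In cancer-gated cells the library ratio of a member went with that of its chromosome. Over 20 chromosomes the median log2 ratio of the genes that are not members ran from -0.30 on chromosome 8 to 0.57 on chromosome 15 in cancer-gated cells, a range of 0.87. The same range was 0.11 in macrophage-gated and 0.20 in fibroblast/pericyte-gated cells, whose markers are those of host cells. Rpl13 on chromosome 8 had -0.63, and the members on chromosome 4, where other genes had a median of -0.17, had a median of -0.47, with Rps6 at -0.54 and Rpl22 at -0.23. On chromosome 15, Rpl30, Rpl37 and Rpl8 had 0.40, 0.30 and 0.17, and Rpl3 had -0.21. On chromosome 3, where other genes had a median of 0.27, Rpl34 and Rpl22l1 had 0.45 and 0.40 while Rps27 and Rps3a1 had -0.35 and -0.18. Spearman's rho between a member's ratio and the median of the other genes on its chromosome was 0.61 over 80 members in cancer-gated cells, 0.13 in macrophage-gated and 0.46 in fibroblast/pericyte-gated cells. Members of 1 chromosome share their median and the same 2 libraries, and this is a description. DNA copy number was not measured here, and the 2 lines differ by a clonal selection.

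**Figure D5:**
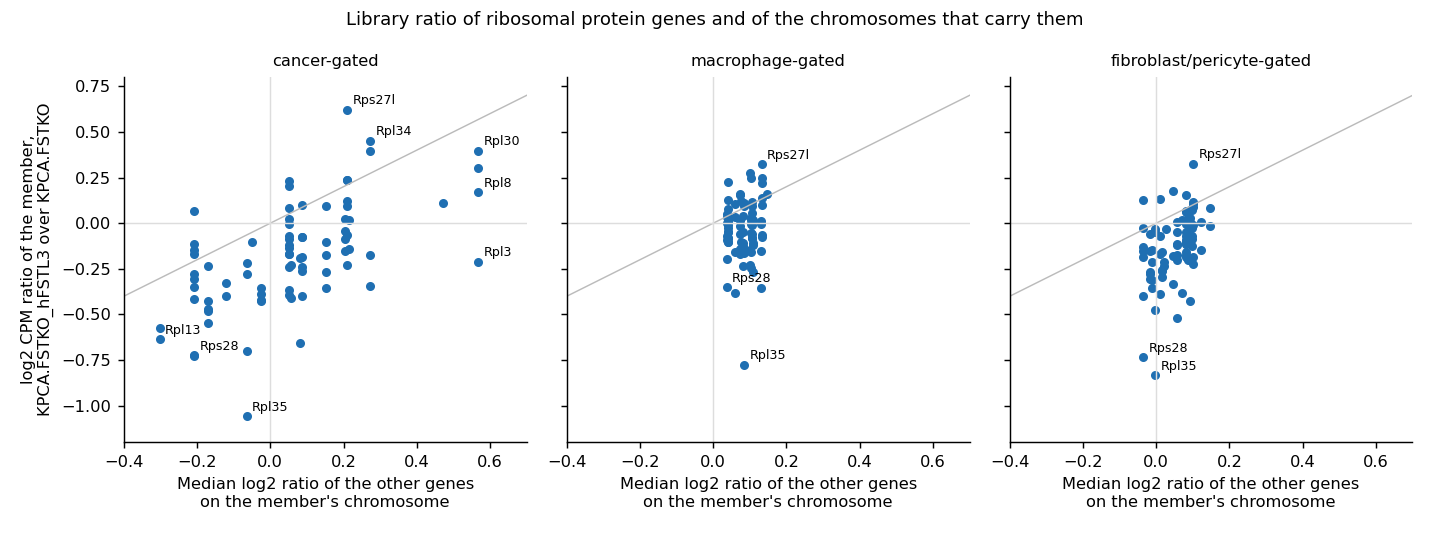
Log2 CPM ratio of each of 80 ribosomal protein genes, KPCA.FSTKO_hFSTL3 over KPCA.FSTKO (vertical), against the median ratio of the other genes on its chromosome (horizontal), in 3 classes; the diagonal marks equal values. In cancer-gated cells the chromosomes spread over 0.87 and members follow them, with Rpl35 at -1.06 and Rpl3 at -0.21 below the diagonal, while in macrophage-gated cells the chromosomes lie within 0.11.

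Set against their own chromosome, 67 of 80 members were below the median of the other genes in cancer-gated cells, 62 in macrophage-gated and 72 in fibroblast/pericyte-gated cells. By definition, a median has as many of the other genes below it as above it. In macrophage-gated cells the median over members was -0.01, while the chromosome medians ran from 0.04 to 0.15. Members at least 1.5 times below the median of their chromosome in cancer-gated cells were Rpl35 (-0.99), Rpl3 (-0.78), Rps29 (-0.74), Rps21 (-0.64) and Rps27 (-0.62), so that Rps28, Rpl36 and Rpl13 no longer passed and Rpl3 and Rps27 were added. The share of other genes that far below the median of their chromosome was not counted. The SD of the members' ratios was 0.29 before and 0.24 after the chromosome median was taken off. The difference between libraries in the Rpl22l1 share of cancer-gated cells lies between genes on chromosome 3 (Rpl22l1) and chromosome 4 (Rpl22), whose other genes had medians of 0.27 and -0.17. The share also differed in fibroblast/pericyte-gated cells (39.7% and 43.2%), where these medians were 0.01 and 0.10.

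Ribosomal proteins whose symbols fall outside the naming rule were not counted as members. Fau, which encodes a ubiquitin-like protein fused to a small-subunit protein, stood at 6372 CPM in the cancer-gated cells of KPCA.FSTKO and 4245 CPM in those of KPCA.FSTKO_hFSTL3, and Rack1, a scaffold on the small subunit, at 2656 and 2156 CPM. Near-identical copies can split the reads of a member. Rpl36al held 30.6% and 38.8% of the UMIs of its pair with Rpl36a in the 2 libraries, and Rps27rt 2.70% and 4.28% of its pair with Rps27, so the values of Rpl36a and Rps27 are uncertain to that extent.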

How the data were processed

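Omental tumors were profiled by 10x 3′ single-cell RNA-seq, 1 library per genotype, and genotypes were taken from the sample titles. The authors deposited raw UMI counts per gene and barcode, aligned to mm10. The submitters' processing notes name Cell Ranger 3.1.0, whereas the matrix headers name 7.2.0. No doublet step is given in the sources used here, none was added, and doublets may be among the cells.

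Counts were summed per class and library in Python 3.11.15 with numpy 2.4.6, scipy 1.17.1 and pandas 2.3.3. TMM factors came from edgeR 4.0.16. With 1 library per genotype no test was run. Intervals are exact at 95% (Clopper-Pearson, Poisson, or conditional binomial for ratios) and cover counting error only. A gene was compared from 100 UMIs over both sides and counted as higher or lower from a ratio of 1.5, a rule of size. Gating used 11 marker lists, and its thresholds were set after marker counts had been seen. Cancer- and fibroblast/pericyte-gated cells of both libraries and macrophage-gated cells of KPCA.FSTKO_hFSTL3 had 0 of their own markers among their 10 leading genes by fold. Barcodes raising B-cell markers were not used as a class. The named genes were the paralogs, the stalk genes and Rpsa, the 5 members with the most and the fewest UMIs, and the 5 highest and lowest of each contrast. Some genes that this rule names are not reported here. Members and lists were chosen with earlier results of these data known. There were 23 alternatives listed at the start and 7 added after seeing the data. The count scripts were tested on simulated data. RefSeq start regions came from GRCm38.p6 and gene positions from GENCODE for GRCm38, the assembly that mm10 names.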

Additional observations from a re-analysis of the deposited data

Results flagged for a closer look

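The barcodes that the filters removed carry a ribosomal protein signal that no comparison used. Their median share was 8.648% over 805 barcodes of KPCA.FSTKO and 13.53% over 203 barcodes of KPCA.FSTKO_hFSTL3, below the kept barcodes at 20.1% and 24.7%. Barcodes removed for 20% or more mitochondrial UMIs had medians of 4.75% (550 barcodes) and 3.96% (97 barcodes), and those removed for 8000 or more genes 23.7% (255) and 20.2% (103). The part of damaged cells and doublets in these values was not tested.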

How the results depend on the processing

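No paired analysis was possible because each genotype has 1 library and no replicates. Depth limits the rare paralogs (Rpl3l, Rpl39l and Rpl10l).

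The log2 ratio of the summed share in cancer-gated cells between libraries, -0.17, became -0.19 with mitochondrial UMIs under 10%, -0.18 with all deposited barcodes, -0.28 without the 5% of cells with most UMIs, -0.15 as a mean over cells, -0.18 without mitochondrial genes in the total, -0.18 with ribosomal proteins outside the symbol rule, -0.17 with the looser gate, -0.15 after thinning to 1000 UMIs and -0.18 without barcodes that raised 2 or more acinar markers. The macrophage over cancer ratio of KPCA.FSTKO, -0.63, became -0.62, -0.60, -0.62, -0.62, -0.63, -0.59, -0.63 and -0.62 under the same settings in that order, leaving out all deposited barcodes, and -0.65 with the stricter gate. That of KPCA.FSTKO_hFSTL3, -0.49, became -0.44 with all deposited barcodes, -0.36 without the 5% of deepest cells, -0.53 as a mean over cells, -0.48 with proteins outside the rule, -0.48 with the looser gate, -0.52 after thinning and -0.51 without acinar-marker barcodes. None of these 3 ratios changed sign. The macrophage ratio between libraries, -0.03, turned to 0.0047 with all deposited barcodes, and the cause was not tested. Over the settings the erythroid ratio ran from -3.07 to -1.13 and the neutrophil ratio from -2.04 to -0.81.

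A minimum ratio of 2 in place of 1.5 left 0 departures in macrophage-gated cells of KPCA.FSTKO (9 before) and 1 in those of KPCA.FSTKO_hFSTL3 (11 before). It left 0 higher and 1 lower member between libraries in cancer-gated cells, 6 lower members in macrophage-gated cells of KPCA.FSTKO, and 0 higher and 7 lower in those of KPCA.FSTKO_hFSTL3. The stricter gate also gave 0 higher there. TMM gave 0 higher members between libraries in cancer-gated cells, and scaling to the sum of the members gave 2 higher and 1 lower. A minimum of 20 UMIs added 1 higher member in macrophage-gated cells of KPCA.FSTKO. The share of all genes is not given at these settings, so the counts show only how the rule moves them.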

Other observations

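Ribosome biogenesis and proliferation genes were also compared between the libraries. In cancer-gated cells 4 of 21 biogenesis genes, Gar1, Bop1, Nop16 and Myc, were at least 1.5 times higher in KPCA.FSTKO_hFSTL3 and 0 lower (median log2 ratio 0.28), beside 11.5% and 13.4% of all genes, and the median over the ribosomal protein genes was -0.18. The biogenesis genes were not set against the medians of their chromosomes, which ran from -0.30 to 0.57 over all chromosomes in these cells. In macrophage-gated cells 3 of 20 were higher and 0 lower, but 1 and 1 with TMM scaling. All 8 proliferation genes were higher in the macrophage-gated cells (median 0.83, beside 7.80% of all genes) and in the fibroblast/pericyte-gated cells (median 1.37, beside 7.19%) of KPCA.FSTKO_hFSTL3. With TMM 7 were higher in the macrophage-gated cells, and the 2 shares of all genes are without TMM. In cancer-gated cells 0 of 8 were higher and 2, Cenpf and Ube2c, lower. The mixed barcodes of that library raised a median of 5 of 12 cancer, 6 of 12 macrophage and 15 of 17 acinar markers, and the part of free RNA in the proliferation values was not tested.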
